A study of Mus musculus with 36 samples.

Results

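Interferon-induced genes are genes that cells switch on after interferon binds its receptor. Of 34 such mouse genes listed, 32 were measured, each by the transcript cluster (the probes of 1 gene) whose only gene symbol was the listed gene. The gene-level tables hold 65956 transcript clusters, of which 30646 carry 1 symbol. *Irf1* had several such clusters, of which the one with the strongest mean signal on the 18 arrays was taken. *Ifi27* shares its cluster with *Ifi27l1*, *Ifi44* had no cluster with its symbol at the gene level, and both were left out there.

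Male C57BL/6 mice of 8 weeks received diazepam (DZP), a benzodiazepine that enhances GABA-A receptors, or Intralipid (Ctrl), the fat emulsion used as vehicle. They were injected intraperitoneally 2 times a day for 10 days. The sample labels give DZP as 5 mg/ml and the study's methods as 5 mg/kg. DZP cortex, DZP hippocampus and DZP amygdala were compared with Ctrl cortex, Ctrl hippocampus and Ctrl amygdala, with 3 arrays per group. All mice, DZP and Ctrl, were anaesthetised with a mixture that held midazolam, itself a benzodiazepine, and were perfused before tissue was punched from brain slices. The regions of a treatment may come from the same mice, but neither the labels nor the methods say which arrays share a mouse. Affymetrix Mouse Transcriptome Arrays 1.0 were hybridised with label made from 100 ng of total RNA, and all levels below are log2 signals.

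Type I interferon acts through the receptor chains IFNAR1 and IFNAR2 and the kinases JAK1 and TYK2. Signalling through these kinases activates a complex that holds STAT2 and IRF9 and binds the interferon-stimulated response element (ISRE) in the promoters of induced genes. In the brain, microglia, astrocytes, neurons and endothelial cells can all respond, and the induced proteins restrict viral entry, sense or degrade viral RNA, and increase antigen presentation. In bulk tissue such as these punches, fewer cells of a type and less RNA per cell cannot be told apart.

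Promoter sequence is shown for 5 members, 3 with groups apart in at least 1 region (*Ifitm3*, *Ifitm2*, *Stat2*) and 2 standard markers of an interferon response (*Isg15*, *Ifit1*) whose groups overlapped in each region. Each run is 30 bases of the RefSeq promoter table on build GRCm38.p6, written 5′ to 3′ in the direction of the gene. Capitals mark the ISRE core, GAAANNGAAA or its reverse complement TTTCNNTTTC.
Ifitm3, chr7:141010714-141010743, minus strand: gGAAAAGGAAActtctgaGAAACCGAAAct
Ifitm2, chr7:140955988-140956017, minus strand: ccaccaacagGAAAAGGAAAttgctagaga
Stat2, chr10:128270266-128270295, plus strand: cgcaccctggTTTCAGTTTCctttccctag
Isg15, chr4:156200871-156200900, minus strand: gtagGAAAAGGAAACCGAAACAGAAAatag
Ifit1, chr19:34640785-34640814, plus strand: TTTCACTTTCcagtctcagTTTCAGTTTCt

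The 2 matches of *Ifitm3* lie just after its RefSeq start, at bases 3 to 12 and 20 to 29 of the transcript. In *Ifitm2* the match runs from base -46 to -37 before the start, with the same 10 letters as the first match of *Ifitm3*. *Stat2* has its match at -222 to -213, *Isg15* has 3 overlapping matches between -78 and -57, and *Ifit1* has matches at -104 and -85. The window of *Ifitm1* holds none. Searched on both strands of windows of 300 bases (250 before and 50 after the start), the core was found in 15 of the 27 members in the table (55.6%), against 3.44% of all 32851 windows and 3.99% of all genes. *Usp18*, *Oas2*, *Mx1*, *Mx2*, *Zbp1*, *Ifi27* and *Rtp4* are not in the table used here. Members with the core were found both among those with higher means and among those with differences near 0.

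Signal was low for most members. The means of the 5222 negative-control probe sets lay between 6.71 and 6.80, and 26 of the 32 members averaged below them. *Ifitm2*, *Ifitm3*, *Ifit3*, *Stat2*, *B2m* and *Xaf1* were at or above them. Array medians lay between 5.86 and 6.03, and arrays of a group correlated across clusters with r between 0.9932 and 0.9965. The region labels fitted their markers in Ctrl tissue. *Prox1*, a dentate granule cell gene, was higher by 4.17 in hippocampus than in cortex, and *Lypd1* was higher by 4.73 in amygdala than in cortex. The 5 measured cortical markers, the layer gene *Rorb* among them, differed by -4.14 to -1.92 between hippocampus and cortex. *Ttr*, which marks choroid plexus, was above 10 on DZP hippocampus arrays 1 and 2, on Ctrl hippocampus arrays 2 and 3 and on Ctrl amygdala array 3. The striatal receptor gene *Drd2* read 11.67, 12.10 and 10.18 in DZP amygdala, against 10.45, 10.70 and 8.82 in Ctrl amygdala, so the amygdala punches differed in their striatal signal.

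Of the 32 measured genes, *Ifitm3* and *Ifitm2* had the largest log2 differences between DZP and Ctrl tissue in each region. The IFITM genes encode small membrane proteins that restrict the fusion of viruses with the cell, and *Ifitm2*, *Ifitm1* and *Ifitm3* lie within the interval from 140954837 to 141010744 of chromosome 7 (GRCm38.p6). All 3 had higher means in DZP tissue than in Ctrl tissue in each region, with *Ifitm3* at 1.66-fold in the cortex, 1.80-fold in the hippocampus and 1.41-fold in the amygdala. None passed limma's test at an adjusted p of 0.05 over all clusters.

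*Ifitm3* read 7.83, 8.37 and 8.25 in DZP cortex, against 7.37, 7.48 and 7.40 in Ctrl cortex. The hippocampus gave 8.16, 8.08 and 7.81 in DZP mice, against 7.30, 7.06 and 7.14 in Ctrl mice. In DZP amygdala it read 6.93, 7.64 and 7.52, against 6.75, 7.23 and 6.63 in Ctrl amygdala. Every DZP array stood above every Ctrl array in the cortex and hippocampus, while in the amygdala DZP array 1 lay below Ctrl array 2. The log2 fold changes were 0.73 in the cortex, 0.85 in the hippocampus and 0.49 in the amygdala, each with a limma standard error of 0.19. The adjusted p was 0.283 in the cortex, 0.0821 in the hippocampus and 0.433 in the amygdala. Fitted on the hippocampus arrays alone, *Ifitm3* passed with an adjusted p of 0.0217 in limma, where 0.0182% of all clusters were called higher. The study itself had picked *Ifitm3* from these arrays, so its direction here is not independent evidence. It also measured *Ifitm3* by qRT-PCR, and those values were not used here.

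*Ifitm2* read 8.48, 9.42 and 9.59 in DZP cortex, against 8.62, 8.46 and 8.35 in Ctrl cortex. In the hippocampus it read 8.68, 8.60 and 8.47 in DZP mice, against 7.96, 8.02 and 8.03 in Ctrl mice. The amygdala gave 7.61, 8.03 and 8.32 with DZP, against 7.42, 7.79 and 7.79 with Ctrl. The groups were apart in the hippocampus, whereas in the cortex DZP array 1 lay within the Ctrl range and the other 2 DZP arrays lay far above it. The log2 fold changes were 0.68, 0.58 and 0.32 in the cortex, hippocampus and amygdala (SE 0.22), with limma adjusted p of 0.458, 0.334 and 0.678. Leaving out 1 array at a time moved the value between 0.47 and 1.02 in the cortex, the highest without DZP array 1, and between 0.15 and 0.51 in the amygdala. On the hippocampus arrays alone the adjusted p in limma was 0.0313.

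*Ifitm1* read 6.22, 6.44 and 6.39 in DZP cortex, against 6.10, 6.09 and 5.92 in Ctrl cortex. In DZP hippocampus it read 6.33, 6.26 and 6.29, against 6.20, 5.92 and 6.02 in Ctrl hippocampus. In DZP amygdala it read 6.09, 6.27 and 6.37, against 6.01, 6.04 and 5.98 in Ctrl amygdala. It was the only member whose DZP arrays all stood above all Ctrl arrays in each of the 3 regions. How many of all clusters did so was not counted, so this has no background. The differences of *Ifitm1* were small, with log2 fold changes of 0.31, 0.25 and 0.23 (SE 0.09) in the cortex, hippocampus and amygdala. The limma adjusted p was 0.372, 0.301 and 0.447 in these regions. The mean of *Ifitm1*, 6.16 over 18 arrays, lies below that of the negative controls.

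**Figure D1:**
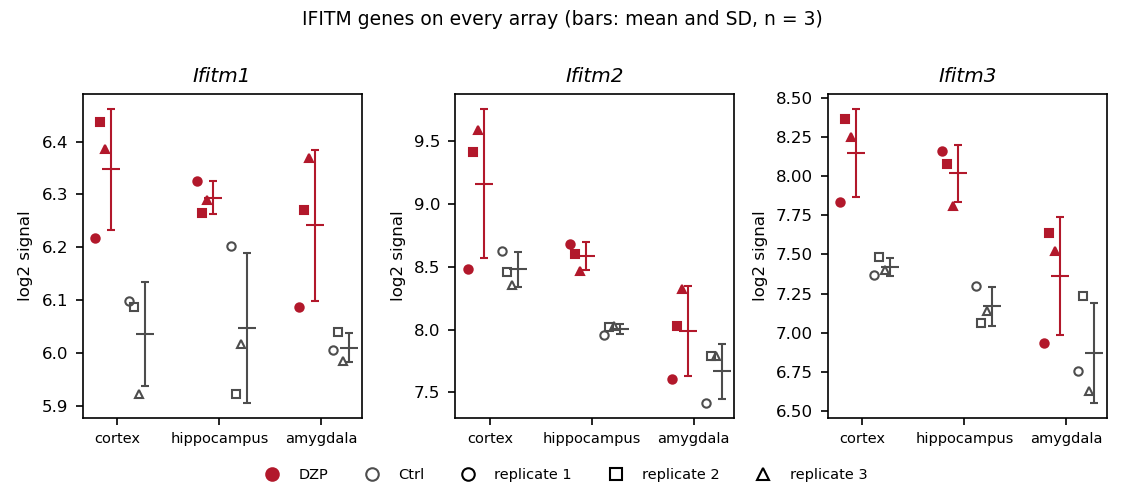
Log2 signal of *Ifitm1*, *Ifitm2* and *Ifitm3* (vertical axes, not starting at 0) on each of 18 arrays by region, with DZP as filled symbols left of Ctrl as open symbols and bars for the mean and SD (n = 3). The DZP points lie above all Ctrl points in each region for *Ifitm1*, in the hippocampus for *Ifitm2*, and in cortex and hippocampus for *Ifitm3*.

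With the 3 regional arrays of a treatment and number averaged first, *Ifitm3* was higher by 0.69 in DZP mice (SE 0.10, n = 3 per treatment), *Ifitm2* by 0.53 (SE 0.13) and *Ifitm1* by 0.26 (SE 0.06). Ranked by this average difference, *Ifitm3* stood at place 11 and *Ifitm2* at place 37 among the 65956 clusters. After limma and adjustment over all clusters the average effects had p of 0.285 for *Ifitm3*, 0.313 for *Ifitm2* and 0.291 for *Ifitm1*, and 0% of all clusters passed. When the 18 arrays were taken as independent, *Ifitm3* passed with an adjusted p of 0.0289 in limma, where 0.0788% of all clusters did, but that fit ignores that regions may share mice. The average in turn treats a number as 1 mouse, which no source states. Arrays of 2 regions with the same number had deviations correlated between -0.1553 and 0.4168, with 6 of 18 above 0.1. For different numbers the range was -0.4567 to 0.2395, with 5 of 36 above 0.1. With treatment and number as a random block, limma's consensus correlation was 0.0069. The direction of the 3 genes was the same in every region under every alternative that was run, the scalings included. *Ifitm1*, *Ifitm2* and *Ifitm3* are close paralogues, and cross-hybridisation between their probes was not tested.

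Among other genes of the family, *Ifitm5*, whose product works in bone, gave log2 fold changes of -0.07, 0.10 and -0.12 in the cortex, hippocampus and amygdala, and *Ifitm7* gave 0.02, 0.05 and 0.02. *Ifitm6*, which lies next to *Ifitm3*, gave -0.06 in the cortex, 0.38 in the hippocampus and 0.29 in the amygdala, with limma adjusted p of 0.968, 0.297 and 0.536. Its groups were apart in the hippocampus and the amygdala, where its differences were larger than those of *Ifitm1*. All 3 averaged below the negative controls, at 4.54 for *Ifitm5*, 4.85 for *Ifitm6* and 6.52 for *Ifitm7*. These 3 genes were added after their values were seen.

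Endothelial cells express IFITM genes, and most endothelial markers also had higher means in DZP tissue. Of 12 endothelial markers, 9 had higher means in DZP tissue in the cortex, 11 in the hippocampus and 9 in the amygdala, and none passed limma's test. *Vwf*, which encodes von Willebrand factor, read 7.31, 7.50 and 7.68 in DZP cortex, against 7.17, 6.78 and 6.82 in Ctrl cortex. *Selp*, which encodes P-selectin, read 5.23, 5.70 and 6.13 in DZP cortex, against 4.91, 4.89 and 4.82 in Ctrl cortex. Both genes were apart in all 3 regions, with log2 fold changes of 0.58, 0.57 and 0.41 for *Vwf* and 0.81, 0.70 and 0.37 for *Selp*. The study had picked both from these arrays, as it had *Ifitm3*, so they are no independent evidence. Its qRT-PCR values for *Vwf* and *Selp* were not used here. The share of all clusters apart in all 3 regions was not counted. The general endothelial marker *Cldn5* gave 0.23, 0.19 and -0.02, and *Pecam1* gave 0.05, 0.19 and 0.10. Summed on the linear scale, the endothelial list lay between 11683 and 16294 in DZP cortex, against 11786 to 14170 in Ctrl cortex. The sums were 10100 to 12115 in DZP hippocampus, against 8883 to 9535 in Ctrl hippocampus, and 8621 to 12879 in DZP amygdala, against 8584 to 11083 in Ctrl amygdala. Markers of pericytes and smooth muscle had higher means at 6, 9 and 7 of 9 genes in the cortex, hippocampus and amygdala. Their sums lay lower in DZP cortex, at 3342 to 3448, against 3496 to 3674 in Ctrl cortex, and overlapped in the other regions. Markers of meningeal and perivascular fibroblasts had higher means at 5, 8 and 5 of 9 genes. Their sums were 2775 to 4013 in DZP cortex, against 2432 to 2597 in Ctrl cortex, and 2910 to 4385 in DZP hippocampus, against 1921 to 2519 in Ctrl hippocampus. In the amygdala the fibroblast sums overlapped, at 1361 to 1998 with DZP, against 1501 to 1839 with Ctrl. The part of these markers in the IFITM differences was not tested.

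Microglial markers differed less. Their sum lay between 2000 and 2041 in DZP cortex, against 1884 and 2001 in Ctrl cortex, and 7 of 9 measured markers had higher means with DZP. The hippocampus sums were 2032 to 2138 with DZP, against 2023 to 2052 with Ctrl, and the amygdala sums were 2049 to 2326 with DZP, against 1938 to 2161 with Ctrl. In the hippocampus 6 of 9 microglial markers had higher means with DZP, as did 6 in the amygdala. Their log2 fold changes ran from -0.18 to 0.22 in the cortex, -0.19 to 0.21 in the hippocampus and -0.12 to 0.23 in the amygdala. *P2ry12*, a receptor of resting microglia, gave log2 fold changes of -0.18, -0.19 and -0.12, and *Tmem119* gave 0.04, 0.01 and 0.03. Of the blood cell markers, 10 of 14 were measured. Higher means with DZP were found for 7 of them in the cortex, 10 in the hippocampus and 10 in the amygdala. The sums of these blood cell markers lay between 5459 and 7057 in DZP cortex, against 4482 and 5391 in Ctrl cortex. In the hippocampus these sums were 4371 to 5217 with DZP, against 2838 to 3367 with Ctrl, and in the amygdala 3441 to 6147 with DZP, against 2544 to 3734 with Ctrl. *Ly6c2*, at a mean of 11.91, had by far the strongest signal in this list, and it is a close paralogue of the endothelial gene *Ly6c1*. The lymphocyte markers *Cd3e* and *Cd79a* averaged 4.49 and 5.16, below the median cluster at 5.95. Their part in the IFITM differences was not tested either.

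**Figure D2:**
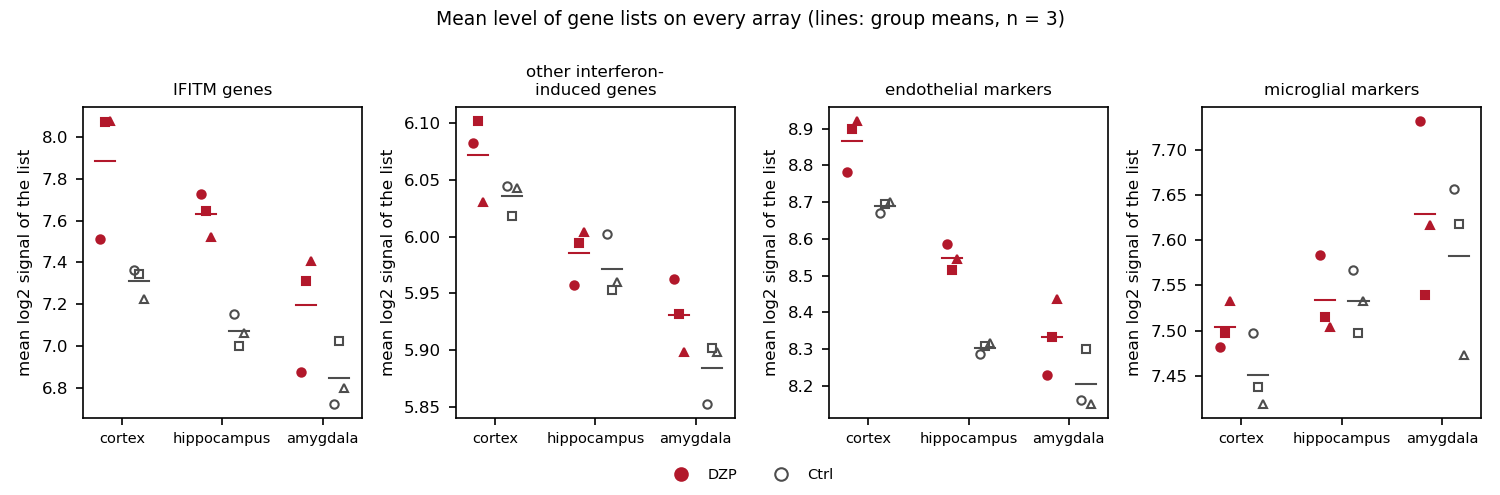
Mean log2 signal (vertical axes, not starting at 0) of the 3 IFITM genes, the 29 other measured interferon-induced genes, 12 endothelial and 9 microglial markers on each array, with DZP as filled symbols left of Ctrl as open symbols, symbol shapes for replicate numbers and lines for group means (n = 3). The IFITM and endothelial means of DZP arrays lie above those of all Ctrl arrays in the cortex and the hippocampus, and overlap with them in the amygdala.

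Choroid plexus signal was uneven among hippocampus arrays. Leaving out the arrays with *Ttr* above 10 left 1 DZP and 1 Ctrl array, with *Ifitm3* at 7.81 with DZP, against 7.30 with Ctrl. This difference of 0.51 had an SE of 0.35 and an adjusted p of 0.865 in limma, with the spread taken from the other groups. The part of choroid plexus tissue was not tested further. In the amygdala, leaving out DZP arrays 1 and 2 and Ctrl array 3 for their striatal or choroid plexus signal gave log2 fold changes of 0.53 for *Ifitm3* and 0.72 for *Ifitm2*. With 1 DZP array left, these values rest on the spread of the other groups, and the adjusted p was 0.78 and 0.804 in limma.

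Across the 32 measured genes, most differences were small. Members called at an adjusted p of 0.05 in limma numbered 0 in the cortex, 0 in the hippocampus and 0 in the amygdala, where 0.0364%, 0.0728% and 0% of all clusters were called. The median log2 fold change of the members was 0.04 in the cortex, 0.02 in the hippocampus and 0.05 in the amygdala, and the medians over all clusters were 0.00, -0.01 and 0.03. Without the IFITM genes the medians were 0.03, 0.01 and 0.03. Higher means in DZP tissue were found for 21 of 32 members in the cortex, 21 in the hippocampus and 26 in the amygdala, where 48.4%, 48% and 58% of all clusters had one. The unmoderated test of the study's methods, after Benjamini-Hochberg adjustment, also called 0 members in each region.

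Every DZP array stood above every Ctrl array for 5 members in the cortex (7.22% of all clusters), 6 in the hippocampus (6.45%) and 6 in the amygdala (8.16%). Every DZP array stood below every Ctrl array for 2 members in the cortex (7.34% of all clusters), 3 in the hippocampus (9.69%) and 0 in the amygdala (4.91%). These counts depended on the scaling. With each array centred on its median, 10 members stood above and 0 below in the hippocampus, and 1 above and 1 below in the amygdala. With quantile normalization, 1 stood above and 3 below in the amygdala and 1 below in the hippocampus. The shares of all clusters under these scalings were not counted. Centring moved the median over all clusters from -0.01 to 0.05 in the hippocampus and from 0.03 to -0.02 in the amygdala. At an unadjusted limma p under 0.05, 6 members were higher and 1 was lower in DZP cortex than in Ctrl cortex, where 3.31% and 4.52% of all clusters were. In the hippocampus 5 were higher and 0 lower (4.42% and 6.8%), and in the amygdala 4 were higher and 0 lower (6.33% and 3.07%). The criteria of the study, an unadjusted p under 0.05 in its own unmoderated test with a 1.5-fold change, were met upwards by 1 member in the cortex (0.177% of all clusters), 1 in the hippocampus (0.111%) and 0 in the amygdala (0.126%). That member was *Ifitm3* both times. For the average over regions, 0 members passed adjustment and 6 were higher at an unadjusted p under 0.05 (4.36% of all clusters).

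The 95% intervals of the log2 fold changes lay wholly within 1.5-fold in either direction for 30 of 32 members in the cortex, 29 in the hippocampus and 30 in the amygdala. The exceptions were *Ifitm2* and *Ifitm3* in each region and *Rtp4* in the hippocampus. *Cxcl10*, which encodes a chemokine induced strongly by interferon, had an interval from 0.870-fold to 1.05-fold in the cortex, and *Mx1* had one from 0.873-fold to 1.10-fold. Both genes, like 24 others, averaged below the negative controls, where an array can understate a change, so their intervals set no bound on the change in RNA.

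**Figure D3:**
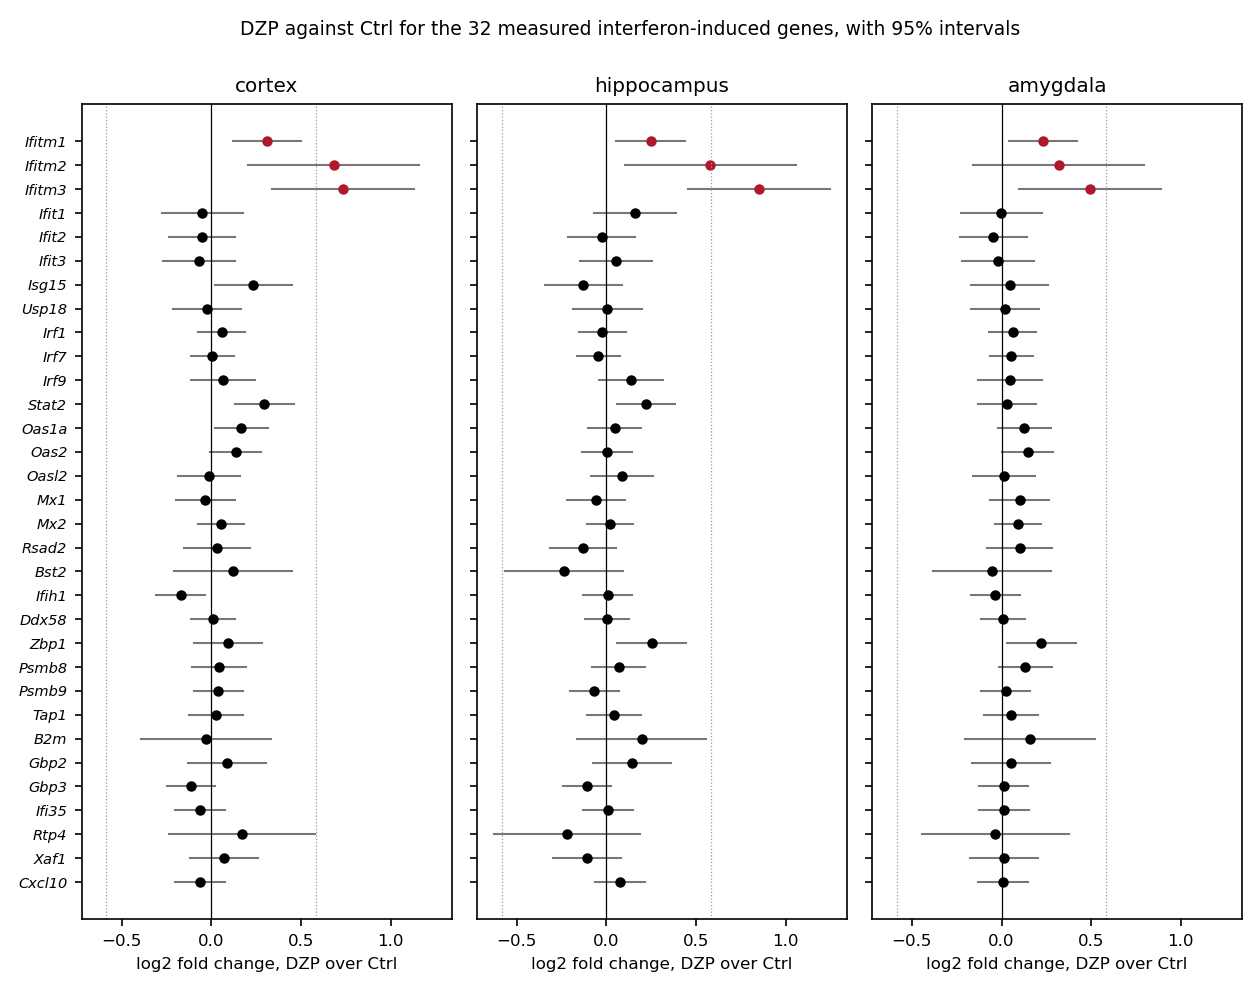
Log2 fold change of DZP over Ctrl (horizontal axes) with 95% limma intervals for the 32 measured interferon-induced genes in the cortex, hippocampus and amygdala, with the IFITM genes in red and dotted lines at 1.5-fold. Points other than the 3 IFITM genes lie between -0.24 and 0.30.

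Among the transcription factors, *Stat2*, which joins IRF9 in the complex that binds the ISRE, read 8.34, 8.36 and 8.52 in DZP cortex, against 8.06, 8.14 and 8.14 in Ctrl cortex. In DZP hippocampus it read 8.32, 8.15 and 8.33, against 7.99, 8.06 and 8.10 in Ctrl hippocampus. In DZP amygdala it read 7.92, 7.95 and 7.90, against 7.79, 7.87 and 8.02 in Ctrl amygdala. The groups were apart in the cortex and hippocampus and overlapped in the amygdala. The log2 fold changes were 0.30, 0.22 and 0.03 (SE 0.08), with limma adjusted p of 0.302, 0.275 and 0.933 in the cortex, hippocampus and amygdala, and the amygdala value was -0.01 when each array was centred on its median. *Irf9* gave 0.06, 0.14 and 0.04, with groups apart in the hippocampus. *Irf1*, an early target of interferon gamma, gave 0.06, -0.02 and 0.06, and *Irf7*, which amplifies interferon production, gave 0.01, -0.05 and 0.06.

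*Zbp1*, a sensor of Z-form nucleic acid that can start cell death, read 5.35, 5.43 and 5.39 in DZP hippocampus, against 5.33, 5.04 and 5.04 in Ctrl hippocampus. In DZP amygdala it read 5.55, 5.36 and 5.34, against 5.19, 5.16 and 5.22 in Ctrl amygdala. In DZP cortex it read 5.21, 5.34 and 5.10, against 5.18, 5.02 and 5.17 in Ctrl cortex. The groups were apart in the hippocampus and amygdala but not in the cortex, with log2 fold changes of 0.09, 0.25 and 0.22 (SE 0.09) and limma adjusted p of 0.882, 0.288 and 0.468 in the cortex, hippocampus and amygdala. *Ifih1*, which encodes MDA5, read 6.17, 6.23 and 6.29 in DZP cortex, against 6.43, 6.37 and 6.40 in Ctrl cortex, with a log2 fold change of -0.17 (adjusted p = 0.531 in limma), and gave 0.01 and -0.04 in the hippocampus and amygdala. *Ddx58*, which encodes RIG-I, gave 0.01 in each region.

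Of the OAS family, which make the second messenger that activates RNase L, *Oas2* read 4.74, 4.90 and 4.79 in DZP cortex, against 4.69, 4.66 and 4.67 in Ctrl cortex. In DZP amygdala it read 4.77, 4.72 and 4.83, against 4.56, 4.63 and 4.69 in Ctrl amygdala. In the hippocampus the values were 4.74, 4.88 and 4.76 with DZP, against 4.78, 4.74 and 4.84 with Ctrl. The groups were apart in the cortex and the amygdala by a narrow gap, and overlapped in the hippocampus, with log2 fold changes of 0.14, 0.00 and 0.15 (SE 0.07) and limma adjusted p of 0.652, 0.99 and 0.52 in the cortex, hippocampus and amygdala. *Oas1a* read 5.20, 5.14 and 5.23 in DZP cortex, against 5.04, 5.00 and 5.03 in Ctrl cortex, and its groups were apart there. In the hippocampus it read 5.16, 5.09 and 5.13 with DZP, against 5.07, 5.07 and 5.10 with Ctrl, and in the amygdala 5.05, 5.21 and 5.29 with DZP, against 4.99, 5.03 and 5.16 with Ctrl, with overlap in both. Its log2 fold changes were 0.17, 0.05 and 0.13, and those of *Oasl2* were -0.01, 0.08 and 0.02.

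*Gbp3*, a guanylate-binding protein that attacks the vacuoles of intracellular pathogens, had lower means in DZP cortex and hippocampus. It read 5.78, 5.80 and 5.78 in DZP cortex, against 5.88, 5.83 and 5.98 in Ctrl cortex. The hippocampus values were 5.75, 5.63 and 5.75 with DZP, against 5.84, 5.82 and 5.80 with Ctrl. In the amygdala they were 5.74, 5.72 and 5.59 with DZP, against 5.66, 5.65 and 5.71 with Ctrl. The DZP arrays were below the Ctrl arrays in the cortex and hippocampus only, with log2 fold changes of -0.11, -0.11 and 0.01 (SE 0.06) and limma adjusted p of 0.722, 0.571 and 0.973 in the cortex, hippocampus and amygdala. The amygdala value was -0.03 and -0.04 after centring and after quantile normalization. *Gbp2*, of the same family, read 5.77, 5.75 and 6.01 in DZP cortex, against 5.84, 5.77 and 5.66 in Ctrl cortex. In the hippocampus it read 5.69, 6.02 and 5.76 with DZP, against 5.66, 5.52 and 5.86 with Ctrl, and in the amygdala 5.69, 5.65 and 5.57 with DZP, against 5.53, 5.60 and 5.61 with Ctrl. The groups of *Gbp2* overlapped in each region, and its log2 fold changes were 0.09, 0.14 and 0.05.

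**Figure D4:**
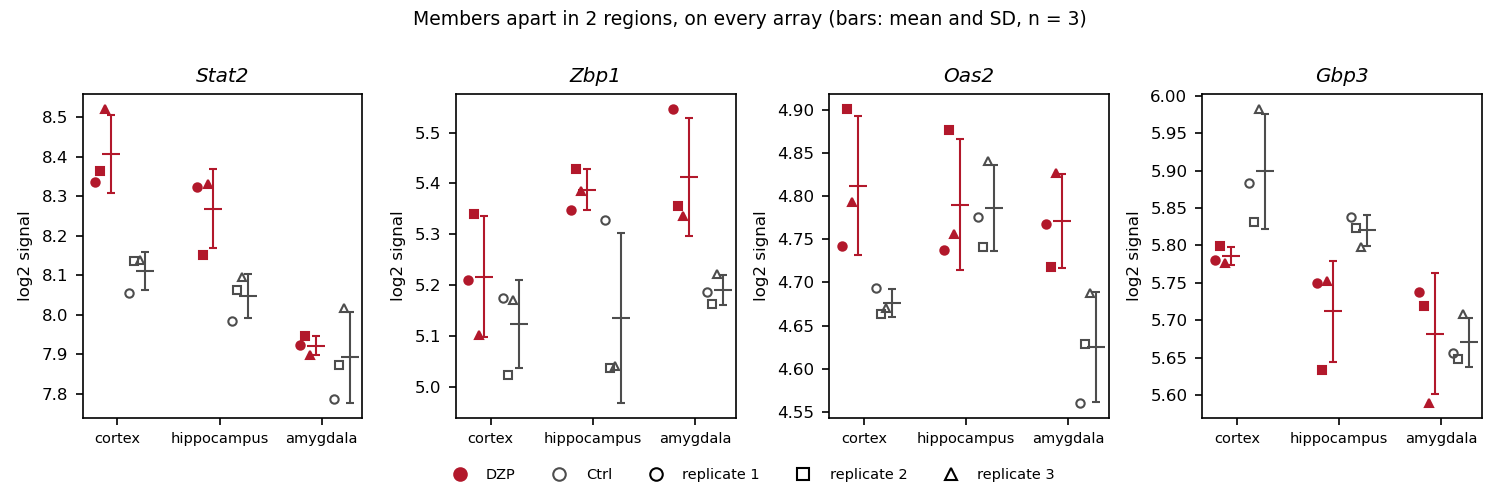
Log2 signal of *Stat2*, *Zbp1*, *Oas2* and *Gbp3* (vertical axes, not starting at 0) on each array by region, with DZP as filled symbols left of Ctrl as open symbols and bars for the mean and SD (n = 3). The groups do not overlap in 2 of the 3 regions for each gene, with DZP above Ctrl for *Stat2*, *Zbp1* and *Oas2* and below Ctrl for *Gbp3*. The share of all clusters apart in 2 regions was not counted.

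The IFIT genes, whose products bind foreign RNA and are among the most strongly induced by interferon, showed no separation of the groups. *Ifit1* read 6.30, 6.23 and 5.95 in DZP cortex, against 6.31, 6.24 and 6.07 in Ctrl cortex. In the hippocampus it read 5.93, 6.03 and 6.28 with DZP, against 5.94, 5.96 and 5.86 with Ctrl. In the amygdala it read 5.90, 6.14 and 5.90 with DZP, against 5.93, 6.05 and 5.96 with Ctrl. All 3 regions overlapped, with log2 fold changes of -0.05, 0.16 and 0.00. *Ifit2* gave -0.05, -0.03 and -0.05, the only member with a lower mean in every region, and *Ifit3* gave -0.07, 0.05 and -0.02.

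*Isg15*, a ubiquitin-like protein joined to other proteins after interferon, read 5.03, 4.89 and 4.80 in DZP cortex, against 4.69, 4.51 and 4.82 in Ctrl cortex. The hippocampus arrays read 4.52, 4.55 and 4.89 with DZP, against 4.77, 4.80 and 4.78 with Ctrl. In the amygdala it read 4.67, 4.68 and 4.74 with DZP, against 4.60, 4.60 and 4.76 with Ctrl. The groups overlapped in each region, and the log2 fold changes differed in sign, at 0.23, -0.13 and 0.05 (adjusted p = 0.596, 0.695 and 0.92 in limma). *Usp18*, the protease that removes ISG15 and dampens the receptor, gave -0.02, 0.01 and 0.02.

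Mx GTPases, viperin and tetherin block later steps of viral growth. *Bst2*, which encodes tetherin, read 6.32, 6.83 and 6.19 in DZP cortex, against 6.39, 6.16 and 6.43 in Ctrl cortex. Hippocampus arrays gave 6.41, 6.13 and 6.31 with DZP, against 6.45, 6.45 and 6.65 with Ctrl, and in the amygdala 6.27, 6.19 and 5.79 with DZP, against 6.19, 6.21 and 6.02 with Ctrl. DZP arrays were below Ctrl arrays in the hippocampus only, where the log2 fold change was -0.24 (adjusted p = 0.618 in limma), beside 0.12 in the cortex and -0.05 in the amygdala. *Rsad2*, which encodes viperin, was also below Ctrl on every DZP hippocampus array, with -0.13 there, 0.03 in the cortex and 0.10 in the amygdala. *Mx1* gave -0.03, -0.06 and 0.10, and *Mx2* gave 0.05, 0.02 and 0.09, with the groups of *Mx2* apart in the amygdala.

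For antigen processing, *B2m*, the light chain of MHC class I, was among the 6 members above the negative controls. It read 14.83, 15.14 and 14.78 in DZP cortex, against 14.81, 15.08 and 14.94 in Ctrl cortex. Hippocampal signals were 14.53, 14.44 and 13.87 with DZP, against 14.30, 14.04 and 13.91 with Ctrl, and in the amygdala 14.09, 14.23 and 14.29 with DZP, against 13.86, 14.37 and 13.91 with Ctrl. The groups overlapped in each region, with log2 fold changes of -0.03, 0.20 and 0.16. The immunoproteasome subunit genes gave 0.04, 0.07 and 0.13 (*Psmb8*) and 0.04, -0.07 and 0.02 (*Psmb9*). The peptide transporter gene *Tap1* gave 0.03, 0.04 and 0.05. Only *Psmb8* in the amygdala had groups that were apart.

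*Rtp4*, a chaperone of membrane receptors, varied widely among DZP arrays, with an SD of 0.39 in DZP cortex and 0.42 in DZP hippocampus. It read 6.65, 5.91 and 6.06 in DZP cortex, against 5.96, 6.10 and 6.05 in Ctrl cortex. Its hippocampal signals were 5.38, 5.66 and 6.21 with DZP, against 6.12, 5.97 and 5.80 with Ctrl, and in the amygdala 5.64, 5.37 and 5.45 with DZP, against 5.54, 5.36 and 5.66 with Ctrl. The log2 fold changes of 0.17, -0.22 and -0.04 were smaller than this spread. *Xaf1*, which promotes cell death, gave 0.07, -0.11 and 0.01, and *Ifi35* gave -0.06, 0.01 and 0.02. *Cxcl10* read 4.13, 4.19 and 4.16 in DZP cortex, against 4.24, 4.24 and 4.18 in Ctrl cortex. The hippocampus arrays read 4.18, 4.23 and 4.19 with DZP, against 4.12, 4.05 and 4.21 with Ctrl, and in the amygdala 4.24, 4.23 and 4.13 with DZP, against 4.26, 4.20 and 4.10 with Ctrl. The groups of *Cxcl10* overlapped in each region, and its log2 fold changes were -0.06, 0.08 and 0.01.

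Beside these members, 103 of 121 other genes of the interferon pathway were measured, and 0 passed limma's test in any region. They comprised interferons, receptors, signalling genes and inhibitors, and also 44 further interferon-induced genes and 8 MHC class I genes. At an unadjusted p under 0.05, 3 were higher and 5 lower in DZP cortex than in Ctrl cortex, 4 higher and 2 lower in the hippocampus, and 4 higher and 5 lower in the amygdala. Over all clusters the shares were 3.31% and 4.52%, 4.42% and 6.8%, and 6.33% and 3.07%, so most of these counts were near the background. Of 18 interferon genes measured, 6 had higher means with DZP in the cortex, 9 in the hippocampus and 15 in the amygdala, and the medians were -0.03, 0.00 and 0.12. Over all clusters, 48.4%, 48% and 58% had higher means. The mean of this list on an array lay between 5.06 and 5.35, below the negative controls. *Ifnb1* gave log2 fold changes of 0.03, 0.12 and 0.09, and *Ifng* gave 0.10, -0.02 and 0.11. *Ifnz* was below Ctrl on every DZP array in the cortex and the amygdala, with -0.14, -0.10 and -0.30 over the 3 regions. Means of 5.55 for *Ifnb1* and 4.26 for *Ifng* lie below the median cluster.

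The receptor chain gene *Ifnar2* was above Ctrl on every DZP array in the cortex and the hippocampus, with log2 fold changes of 0.09, 0.16 and -0.07, and *Ifnar1* gave 0.03, 0.13 and -0.10. The kinase gene *Jak1* gave -0.08, 0.13 and -0.11. Of 10 inhibitor genes, 5, 7 and 6 had higher means with DZP in the cortex, hippocampus and amygdala, and *Socs1*, a feedback inhibitor of JAK kinases, gave -0.13, 0.02 and 0.06. Among 44 further interferon-induced genes measured, 23 had higher means with DZP in the cortex, 25 in the hippocampus and 26 in the amygdala, with medians of 0.01, 0.01 and 0.03. *Trafd1* (0.09, 0.29 and 0.07), *Igtp* (0.13, 0.13 and 0.14) and *Oas1g* (0.01, 0.16 and 0.14) were each above Ctrl on every DZP array in 2 regions. In this list, 7 genes stood above and 3 below without overlap in DZP cortex, where 7.22% and 7.34% of all clusters did. For DZP hippocampus the counts were 3 above and 0 below, beside 6.45% and 9.69% of all clusters. For DZP amygdala they were 3 above and 6 below (8.16% and 4.91%), with *Irgm1* among those below (-0.18, 0.00 and -0.25). Whether these counts differ from the shares of all clusters was not tested. The share of all clusters apart in 2 regions, as *Trafd1*, *Igtp* and *Oas1g* were, was not counted. Of 8 MHC class I genes measured, *H2-K1* gave 0.18, 0.11 and 0.12, and *H2-D1* gave 0.04, 0.12 and 0.17, while *H2-M3* gave -0.20, 0.01 and 0.01 and *Psmb10* gave -0.08, -0.03 and -0.17. In this list 4, 7 and 6 genes had higher means with DZP in the cortex, hippocampus and amygdala.

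Exon-level probe sets of the same arrays, which read single exons and exon junctions, covered 33 members with 757 probe sets. They come from the same RNA and are not independent of the gene level. Member probe sets called in limma numbered 0 in the cortex, 0 in the hippocampus and 0 in the amygdala, where 0%, 0.0533% and 0.000278% of all 719071 probe sets were called. Every DZP array stood above every Ctrl array for 74 member probe sets in the cortex (6.29% of all probe sets), 67 in the hippocampus (8.2%) and 65 in the amygdala (6.55%). Every DZP array stood below for 32 in the cortex (6.22%), 56 in the hippocampus (7.51%) and 24 in the amygdala (6.3%). Without DZP replicate 3, 15 member probe sets passed in the hippocampus, 8 of them higher with DZP, while 1.69% of all probe sets passed. These 15 belonged to 10 genes, with 4 in *Stat2* and 1 each in *Ifitm1* and *Ifitm2*.

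Of 5 *Ifitm3* probe sets, 4 were higher with DZP in cortex, 4 in hippocampus and 5 in amygdala. Their median log2 fold changes were 0.89, 1.09 and 0.68. Of 4 *Ifitm2* probe sets, 3 were higher in each region, with medians of 0.90, 0.64 and 0.20. For *Ifitm1*, 7, 8 and 6 of 9 probe sets were higher, with medians of 0.15, 0.28 and 0.14. The junction probe set of *Ifitm3* gave 1.21, 1.09 and 1.07 in the cortex, hippocampus and amygdala. That of *Ifitm2* gave 1.22, 0.94 and 0.03. *Ifitm1* has 3 junction probe sets, of which 1 gave 1.70, 1.06 and 0.01 in these regions, another 0.15, 0.00 and -0.13, and the last -0.46, 0.28 and 0.21. *Stat2* had higher means with DZP at 45 of 54 probe sets in the cortex, 41 in the hippocampus and 26 in the amygdala. *Zbp1* had 7, 16 and 14 of 18. *Ifi44*, absent at the gene level, had 26 probe sets, of which 13, 12 and 16 were higher, with medians of 0.02, -0.02 and 0.11.

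**Figure D5:**
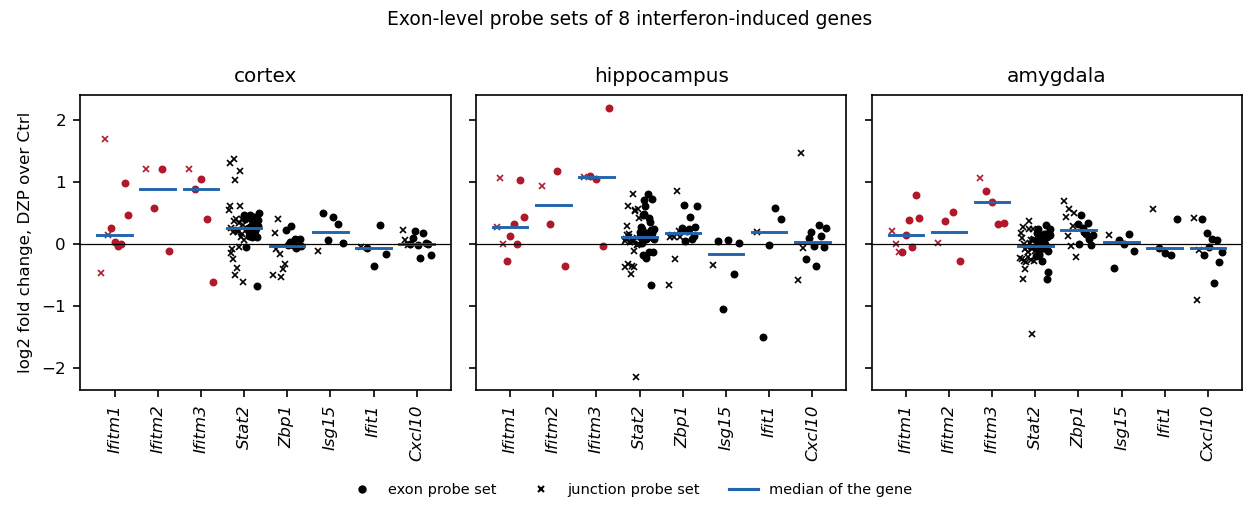
Log2 fold change of DZP over Ctrl (vertical axis) for each exon-level probe set of 8 genes in the cortex, hippocampus and amygdala, with dots for exon probe sets, crosses for junction probe sets and blue lines for the median of each gene. The medians of *Ifitm3* lie at 0.89, 1.09 and 0.68, and those of *Cxcl10* at 0.01, 0.04 and -0.06.

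Whether the DZP effect differed between regions was tested directly by interaction contrasts. Members that passed numbered 0 for hippocampus minus cortex (0.00455% of all clusters), 0 for amygdala minus cortex (0%) and 0 for amygdala minus hippocampus (0.0121%). At an unadjusted p under 0.05 there were 1, 1 and 0, where 8.96%, 7.39% and 9.31% of all clusters were. *Isg15* had the first, with a difference of -0.36 between the hippocampus and cortex effects (limma adjusted p = 0.454), and *Stat2* had the other, with -0.27 between the amygdala and cortex effects (adjusted p = 0.63). The effects on *Ifitm3* differed by 0.12 between hippocampus and cortex, -0.24 between amygdala and cortex, and -0.36 between amygdala and hippocampus, with adjusted p of 0.948, 0.87 and 0.698 in limma.

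The vehicle brain itself differed between regions. In Ctrl hippocampus 0 members were higher (8.13% of all clusters) and 3 lower (6.89%) than in Ctrl cortex by limma, and in Ctrl amygdala 0 were higher (8.87%) and 6 lower (6.65%) than in Ctrl cortex. Between Ctrl amygdala and Ctrl hippocampus 0 were higher (5.77%) and 2 lower (4.57%). *B2m* averaged 14.08 ± 0.20 in Ctrl hippocampus and 14.05 ± 0.28 in Ctrl amygdala, against 14.94 ± 0.14 in Ctrl cortex (SD, n = 3), which are log2 differences of -0.86 and -0.90. *Ifih1* was lower by 0.52 in hippocampus and by 0.73 in amygdala than in cortex, and its 3 Ctrl groups did not overlap. *Ifit2* was also lower in both, with differences of -0.33 and -0.31. *Ifitm2*, with -0.81, *Xaf1*, with -0.32, and *Gbp3*, with -0.23, passed between amygdala and cortex. *Ifih1* (-0.21) and *Xaf1* (-0.33) passed between amygdala and hippocampus, but only 1 of them did with each array centred, with quantile normalization or with the replicate number as a block. Leaving out any 1 Ctrl number left 2 calls between amygdala and cortex and 0 between amygdala and hippocampus. *Ifitm3* differed by -0.25 between hippocampus and cortex and by -0.55 between amygdala and cortex (adjusted p = 0.464 and 0.0599 in limma). The medians of the 12 endothelial markers were -0.40 and -0.44 in the same contrasts, ranging from -0.68 to 0.03 and from -0.83 to -0.16.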

How the data were processed

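The authors hybridised RNA of 3 DZP and 3 Ctrl mice per region to Affymetrix MTA 1.0 arrays and deposited log2 signals at the gene and the exon level. The sources used here do not name the summarisation algorithm. No read depth exists for arrays, and their number limits the precision. The deposited log2 values were used as they are, without control clusters, and 0 value columns were left unused. One model over the 6 groups was fitted with limma 3.58.1 in R 4.3.3 and the package data.table, version 1.17.8, with Benjamini-Hochberg adjustment over all 65956 clusters and a threshold of 0.05. Members and lists were chosen with earlier results of these data known. Named genes were the IFITM genes and members whose groups did not overlap in 2 or more regions, plus an example of each role. Shares of all clusters without overlap were counted for single regions only, so separation in 2 or more regions has no background here. Arrays were treated as independent, and p-values measure only the spread between them. The scripts were tested on simulated data. DZP and Ctrl arrays of the same number had deviations correlated between -0.0975 and 0.203, with 2 of 9 above 0.1, so the numbers were not taken as pairs. Alternatives were centring, quantile normalization, separate regions, a filter on dim clusters, array weights, blocks, an unmoderated test, the mean over clusters and leaving out arrays. Those without arrays of high *Ttr* or *Drd2* were chosen after seeing the data. Comparison columns of the authors were not used.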

Additional observations from a re-analysis of the deposited data

How the results depend on the processing

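With 3 arrays per group, limma's standard errors had a median of 0.08 over members, so small differences were not detectable, and most members lay below the negative controls. No alternative turned the direction of an IFITM gene. On hippocampus arrays alone, 2 members were called higher with DZP (*Ifitm2* and *Ifitm3*; 0.0182% of all clusters), and 1 was called for the average when arrays were taken as independent. Centring gave member medians of 0.075 for hippocampus and 0.0011 for amygdala, where the medians over all clusters were 0.0521 and -0.0159. Then 10 members stood above and 0 below without overlap in the hippocampus, and 1 above and 1 below in the amygdala. Quantile normalization gave member medians of 0.0657 and 0.0030, where those over all clusters were 0.0146 and 0.0004. Then 1 member stood below in the hippocampus, and 1 above and 3 below in the amygdala. In the amygdala, *Stat2* was at -0.0145 after centring, and *Gbp3* at -0.0330 after centring and -0.0434 after quantile normalization. Keeping only the 14 members above the median cluster gave 0.0965 in the hippocampus. The same filter on exon probe sets gave a cortex median of 0.0916 and 1 call in the hippocampus. The medians and called shares over all clusters or probe sets under this filter were not counted. With the replicate block, 1 member was lower in Ctrl amygdala than in Ctrl hippocampus, as with centring (1) and quantile normalization (1); the block changed no DZP call of a member, and *Ifitm3* in the hippocampus had an adjusted p of 0.0614 in limma. Without arrays of high *Ttr* or *Drd2*, *Oas2* was at -0.0195 in the hippocampus and *Gbp3* at -0.0623 in the amygdala. Leaving out 1 array number at a time moved the medians over 0.0166 to 0.0425 in the cortex, 0.0064 to 0.0464 in the hippocampus, 0.0282 to 0.0692 in the amygdala and 0.0160 to 0.0432 for the average. Members above without overlap numbered 5 to 9, 6 to 10 and 6 to 13 in these regions, and members below 2 to 3, 3 to 5 and 0 to 1. Leaving out an array can only keep or raise such a count, so the lower ends show no stability. The shares of all clusters in these smaller groups were not counted. Members lower in Ctrl tissue numbered 2 to 4 for hippocampus minus cortex, 2 to 8 for amygdala minus cortex and 0 to 1 for amygdala minus hippocampus. Exon medians ran over 0.0296 to 0.0512, -0.0022 to 0.0420 and 0.0544 to 0.0757, with 0 to 15 calls in the hippocampus. *Oas2* in the hippocampus ranged from -0.0390 (without DZP 2) to 0.0314, with -0.0007 without Ctrl 1 and -0.0180 without Ctrl 2. In the amygdala *Gbp3* ranged from -0.0165 (without DZP 1) to 0.0576, with -0.0069 without DZP 2, and *Stat2* from -0.0222 (without Ctrl 1) to 0.092. The cause of these changes was not tested.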
